A study of Mus musculus with 19 samples.

Results

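The STAT and SOCS cytokine signalling genes followed here were Stat3, Stat4, Stat5a, Stat5b, Stat6, Socs1, Socs2, Socs3, Cish and Jak3, 10 of the 53656 genes counted in each library. They were taken by name from the deposited count tables, as members of these gene families, and all 10 passed the filter on low counts in every fit. RNA was sequenced from 19 libraries of CD8 T cells of C57BL/6 mice, sorted by flow cytometry and divided into 7 groups by their titles. The cells carried a transgenic T cell receptor, called OT-I where it is specific for chicken ovalbumin and SV40-I where it is specific for large T antigen of the virus SV40.

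The late SV40-I group (3 libraries) held CD8/Thy1.1 sorted SV40-I cells isolated at days 20 to 21 from malignant liver lesions. The late OT-I group (3 libraries) held CD8/Ly5.1 sorted OT-I cells from such lesions on the same days. The marker-high group (3 libraries) held SV40-I cells from lesions of days 8 to 9 gated as CD8+/Thy1.1+ and high for PD1, LAG3 and CD39, and the marker-low group (3 libraries) held those gated as low for all of these surface proteins. The TOX-GFP and GFP groups (2 libraries each) were CD8+/GFP+ SV40-I cells grown in culture. They began as naive cells stimulated through CD3 and CD28, were transduced with a retrovirus coding for TOX-GFP or for GFP alone, and were then expanded with IL-2. The naive group (3 libraries) held CD8/CD44low SV40-I cells. The column headings of the marker-high tables carry the letters WT and those of the marker-low tables the letters KO, while the labels give no genotype, so gate and genotype cannot be told apart here. All libraries are given splenocytes as their source, also the 12 whose titles name liver lesions. Whether replicates are separate animals or cultures is not stated, so the p-values below measure only how these samples vary, which may be technical.

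Cytokines that bind receptors of the common gamma chain family, among them IL-2, IL-7, IL-15 and IL-21, signal through the kinases JAK1 and JAK3, which phosphorylate STAT proteins that then enter the nucleus and bind DNA. STAT5A and STAT5B are the main STATs below the IL-2 receptor in T cells, STAT6 acts below the IL-4 receptor, STAT4 below the IL-12 receptor and STAT3 below receptors for IL-6, IL-10 and IL-21. Cish, Socs1, Socs2 and Socs3 are induced by STATs and code for inhibitors that act back on cytokine receptors or JAKs, and the product of Cish, CIS, also restrains T cell receptor signalling in CD8 T cells.

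STAT dimers bind palindromes of the form TTCNNNGAA, and STAT6 also binds TTCNNNNGAA, so these letters were searched on both strands in the RefSeq promoter windows (GRCm38.p6, 250 bases before each start site to 50 bases after it). A window was given for 9 of the 10 members, 12 windows in all, and none for Socs2. The 3 windows below are of the genes whose group means differed most among the 9 members with a window. They are shown over 280 bases in lower case with every TTCNNNGAA match in capitals. The Cish window lies at chr9:107296409-107296688 on the plus strand, the Socs3 window at chr11:117969337-117969616 on the minus strand and the Socs1 window at chr16:10785507-10785786 on the minus strand.
Cish: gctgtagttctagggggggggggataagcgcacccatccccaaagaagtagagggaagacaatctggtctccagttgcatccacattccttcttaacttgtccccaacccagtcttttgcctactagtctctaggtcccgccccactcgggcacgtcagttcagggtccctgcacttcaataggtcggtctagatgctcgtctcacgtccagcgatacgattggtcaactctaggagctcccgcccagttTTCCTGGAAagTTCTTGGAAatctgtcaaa
Socs3: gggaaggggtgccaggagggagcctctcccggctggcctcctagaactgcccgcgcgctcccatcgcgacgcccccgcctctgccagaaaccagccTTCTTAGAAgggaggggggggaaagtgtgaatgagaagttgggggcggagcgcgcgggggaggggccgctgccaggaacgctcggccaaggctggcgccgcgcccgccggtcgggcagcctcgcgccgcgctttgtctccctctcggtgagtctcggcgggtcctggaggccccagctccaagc
Socs1: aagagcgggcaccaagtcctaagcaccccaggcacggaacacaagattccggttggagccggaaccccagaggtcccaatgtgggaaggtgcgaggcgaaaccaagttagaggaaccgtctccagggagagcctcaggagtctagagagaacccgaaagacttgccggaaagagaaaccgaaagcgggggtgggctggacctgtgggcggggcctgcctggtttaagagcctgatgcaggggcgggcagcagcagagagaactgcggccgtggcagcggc
The Cish window held 2 matches, TTCCTGGAA beginning on the RefSeq start base itself (107296659) and TTCTTGGAA beginning 11 bases further on. The Socs3 window held 1 match, TTCTTAGAA, whose first base was 154 bases before the RefSeq start (117969366). The gene models used for counting begin further upstream, at 107296026 for Cish and 117970047 for Socs3. The Socs1 window and those of Jak3 and the STATs held none, and no window of a member held TTCNNNNGAA. Of all 32851 windows, 8.3% held TTCNNNGAA at least once and 0.457% held it 2 or more times, while 6.95% held TTCNNNNGAA. A match is a run of letters and not a measured binding site.

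Libraries held 37006508 to 54195918 counts each, so 3 counts correspond to a CPM (count scaled to library size) of 0.0554 to 0.0811, and libraries of a group differed by far more than counting error. Levels below are CPM after trimmed-mean (TMM) scaling over the 19 libraries. Fold changes and p-values are from edgeR's quasi-likelihood test, adjusted over all genes tested by the method of Benjamini and Hochberg, and called means an adjusted p under 0.05. Tox stood at 99.1 to 131 CPM in TOX-GFP libraries, against 11.1 to 17.5 CPM in GFP libraries, while naive libraries held 98.7 to 131 CPM and marker-high libraries 369 to 778 CPM. Pdcd1, which codes for PD1, stood at 2330 to 3620 CPM in marker-high libraries, against 393 to 727 CPM in marker-low libraries. All 8 T cell markers were detected in every group. They summed to 29500 to 30000 CPM in late SV40-I libraries, against 16000 to 17800 CPM in late OT-I libraries, and to 6720 to 9110 CPM in cultured cells, against 25300 to 29900 CPM in naive cells. Transcripts of other cells were present in the libraries taken from lesions. The 10 hepatocyte markers summed to 1210 CPM in late SV40-I replicate 2 and to 832 and 1400 CPM in late OT-I replicates 2 and 3, against 11.3 to 34.0 CPM in the other libraries of both groups. The 5 erythroid markers summed to 98.8 to 781 CPM in late SV40-I libraries, against 1290 to 3600 CPM in late OT-I libraries, with none called. The 8 macrophage markers summed to 3480 to 4800 CPM in marker-high libraries, with 677 to 7080 CPM in marker-low libraries, against 3.81 to 7.07 CPM in the cultured cells and 86.0 to 204 CPM in naive cells. In bulk libraries, fewer cells of a type and less RNA per cell cannot be told apart.

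Among the inhibitors, Cish, on chromosome 9 from 107296026 to 107302784 (GRCm38, plus strand), was low in naive cells and higher in every other group. Cish had 469, 595 and 664 CPM in late SV40-I libraries, against 520, 331 and 505 CPM in late OT-I libraries. It had 234, 314 and 485 CPM in marker-high libraries, against 94.8, 83.4 and 73.9 CPM in marker-low libraries. The TOX-GFP libraries held 464 and 431 CPM and the GFP libraries 543 and 501 CPM, against 16.0, 33.5 and 21.4 CPM in naive libraries. Every library of every other group thus lay above all 3 naive libraries, and all marker-high libraries lay above all marker-low ones, while late SV40-I and late OT-I overlapped. Of the 6419 exonic bases counted for Cish, 11.5% are shared with antisense transcripts, and counting used no strand information.

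Set against naive cells, Cish was higher by 4.67 ± 0.35 on the log2 scale in late SV40-I cells (SE, n = 3 each; adjusted p = 2.39e-06, edgeR). The same difference from naive was 4.33 ± 0.34 in late OT-I cells (adjusted p = 7.09e-06), 3.91 ± 0.33 in marker-high cells (6.32e-06), 1.87 ± 0.31 in marker-low cells (0.00148) and 4.47 ± 0.34 in cultured GFP cells (4.8e-07, n = 2 against 3). These comparisons share the naive libraries, which are SV40-I cells. Wherever late OT-I cells are set against naive cells, the T cell receptor therefore differs as well and cannot be told apart. Between the gates at days 8 to 9, Cish was higher by 2.03 ± 0.31 in marker-high than in marker-low cells, a fold of 4.09 (adjusted p = 0.0103). That call was lost without marker-low replicate 3 (adjusted p = 0.0574) and when only these groups entered the fit (0.108), with log2 differences of 1.94 and 2.02. The macrophage list overlapped between the gates, with 0 of 8 markers called, and its part in the Cish difference was not tested. Late SV40-I and late OT-I cells did not differ beyond their spread, with a log2 difference of 0.34 and a 95% interval of -0.24 to 0.92 (adjusted p = 0.577).

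**Figure D1:**
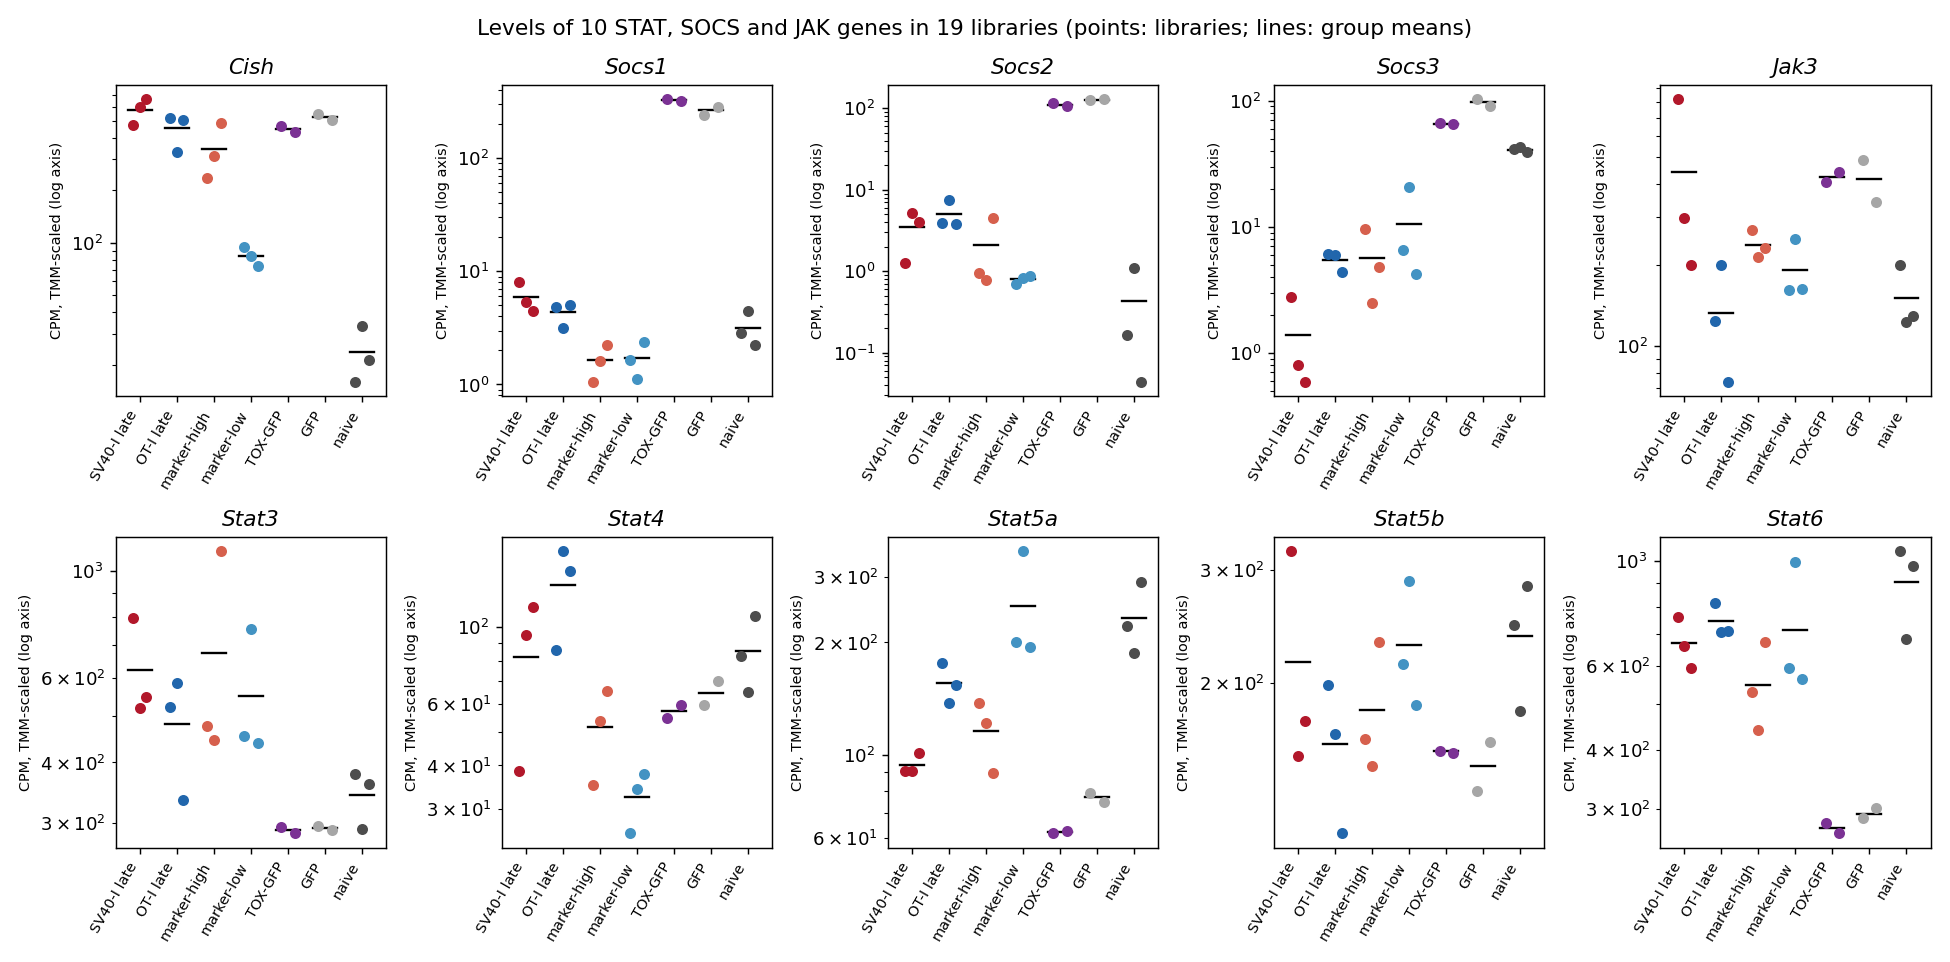
Levels of the 10 genes in each of the 19 libraries, in TMM-scaled CPM on log axes whose range differs between panels; points are libraries, lines are group means, and groups run from late SV40-I to naive. Cish is lowest in the naive (16.0 to 33.5 CPM) and marker-low (73.9 to 94.8 CPM) libraries, Socs1 and Socs2 are above 100 CPM only in the cultured TOX-GFP and GFP libraries, and Socs3 is lowest in late SV40-I libraries at 0.592 to 2.76 CPM.

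Socs1, whose product blocks JAK activity directly, and Socs2, best known as an inhibitor of growth hormone signalling, had high levels in the cultured cells and low levels in every ex vivo group. Socs1 (chromosome 16, 10782240 to 10785536, minus strand) had 334 and 323 CPM in TOX-GFP libraries, against 243 and 287 CPM in GFP libraries. Ex vivo it had 8.01, 5.31 and 4.42 CPM in late SV40-I, 4.84, 3.14 and 5.03 CPM in late OT-I, 1.06, 1.6 and 2.22 CPM in marker-high, 1.64, 1.12 and 2.38 CPM in marker-low and 2.83, 4.45 and 2.23 CPM in naive libraries. All 4 cultured libraries lay far above the other 15, whose highest value was 8.01 CPM. In GFP cells Socs1 exceeded its naive level by 6.38 ± 0.43 on the log2 scale, a fold of 83.5 (adjusted p = 1.89e-07, edgeR). Culture, stimulation, transduction and IL-2 came together in these cells and cannot be told apart in their differences from naive cells.

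Within the ex vivo range, Socs1 was higher in late SV40-I cells than in marker-high cells of days 8 to 9, and the groups did not overlap. The log2 difference was 1.88 ± 0.48 (n = 3 each, adjusted p = 0.0388). This call was lost in 9 of 13 alternative analyses, with adjusted p-values of up to 0.175, and its log2 difference stayed between 1.59 and 2.16. With the replicate number as a block, the adjusted p was 0.0581.

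Socs2 (chromosome 10, 95385362 to 95417180, minus strand) had 116 and 106 CPM in TOX-GFP libraries, against 127 and 130 CPM in GFP libraries. In late SV40-I libraries it had 1.25, 5.14 and 4.03 CPM, and in late OT-I libraries 3.93, 7.56 and 3.84 CPM. It had 0.959, 0.775 and 4.52 CPM in marker-high libraries and 0.690, 0.830 and 0.874 CPM in marker-low libraries, against 0.164, 1.1 and 0.0442 CPM in naive libraries. The cultured libraries lay far above all others, the late groups lay above naive, and the single high marker-high library, replicate 3, stood apart from its group. The naive values rest on 8, 46 and 2 counts, so that folds against naive depend on naive replicate 2. GFP cells exceeded naive cells by 8.21 ± 1.09 in log2 terms (edgeR adjusted p = 4.1e-05), and by 7.67 to 10.21 among the alternatives. Late SV40-I and late OT-I cells had log2 differences from naive of 3.06 and 3.63, both at an adjusted p of 0.0567. Without naive replicate 2 these were 5.06 and 5.62, with adjusted p-values of 0.0101 and 0.0128.

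Socs3 (chromosome 11, 117966079 to 117970047, minus strand), an inhibitor of signalling through receptors that use gp130, was lower in late SV40-I, late OT-I and marker-high cells than in naive cells. It had 2.76, 0.796 and 0.592 CPM in late SV40-I libraries, against 6.05, 5.96 and 4.39 CPM in late OT-I libraries. In marker-high libraries it had 9.57, 2.49 and 4.82 CPM, against 6.55, 20.8 and 4.20 CPM in marker-low libraries. The TOX-GFP libraries held 66.4 and 65.5 CPM and the GFP libraries 103 and 90.7 CPM, while naive libraries held 41.1, 42.6 and 39.0 CPM. All 12 lesion-derived libraries lay below all naive libraries, all cultured libraries lay above them, and late SV40-I lay below late OT-I without overlap. The highest marker-low library, replicate 2, also had that group's highest sums of macrophage markers (7080 CPM), neutrophil markers (2240 CPM) and dissociation and stress genes (1800 CPM), and their part in its Socs3 level was not tested.

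Socs3 had a log2 fold change of -4.82 ± 0.79 in late SV40-I relative to naive cells (n = 3 each, adjusted p = 0.000961, edgeR), and this call held in all 13 alternatives. Late OT-I cells had a log2 fold change of -2.84 ± 0.72 from naive (adjusted p = 0.0292). The late OT-I call was lost whenever any of the 6 libraries was left out, with adjusted p-values of 0.0654 to 0.108. Marker-high cells had -2.81 ± 0.72 (adjusted p = 0.0138; 0.0594 without marker-high replicate 2). Marker-low cells had -1.91 ± 0.69 and were not called (0.0746), but were without replicate 2 (-2.96, 0.0214). Late SV40-I against late OT-I gave -1.98 ± 0.70 (adjusted p = 0.106), which passed with DESeq2 (0.0349) and without late SV40-I replicate 1 (-2.98, 0.0341).

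Jak3 (chromosome 8, 71676296 to 71690575, plus strand), the kinase bound to the common gamma chain, was the only member called between the late groups, where 9.02% of 16404 genes were called, and its groups overlapped. It had 822, 299 and 200 CPM in late SV40-I libraries, against 124, 200 and 74.1 CPM in late OT-I libraries. It had 269, 215 and 231 CPM in marker-high libraries, against 162, 249 and 163 CPM in marker-low libraries. The TOX-GFP libraries held 405 and 441 CPM and the GFP libraries 490 and 343 CPM, against 200, 123 and 130 CPM in naive libraries. Late SV40-I replicate 1 was the highest of the 19 libraries, while late SV40-I replicate 3 and late OT-I replicate 2 met at the same level. The late SV40-I minus late OT-I log2 difference was 1.73 ± 0.48 (n = 3 each, adjusted p = 0.0405, edgeR). It was 0.90 without late SV40-I replicate 1 (adjusted p = 0.226). The call was also lost without late OT-I replicate 1 (0.126), without late OT-I replicate 3 (0.15) and with only these groups in the fit (0.14). Without the 3 libraries rich in hepatocyte transcripts, late OT-I replicate 1 stood alone in its group. The log2 difference was then 2.03 and the call was lost. T cell markers moved with this comparison, 4 of 8 being called higher in late SV40-I cells, and their part in the Jak3 difference was not tested. Against naive cells Jak3 was higher by 1.61 ± 0.48 in late SV40-I cells (adjusted p = 0.0342), or by 0.78 without late SV40-I replicate 1 (0.203). Leaving out naive replicate 1, 2 or 3 also ended that call (0.0507, 0.12 and 0.109). In GFP cells it was higher than in naive cells by 1.46 ± 0.48 (0.0289), a call lost without GFP replicate 1 (0.151), naive replicate 2 (0.0877) or naive replicate 3 (0.0825). Of the exonic bases of Jak3, 7.55% are shared with Insl3 on the same strand.

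**Figure D2:**
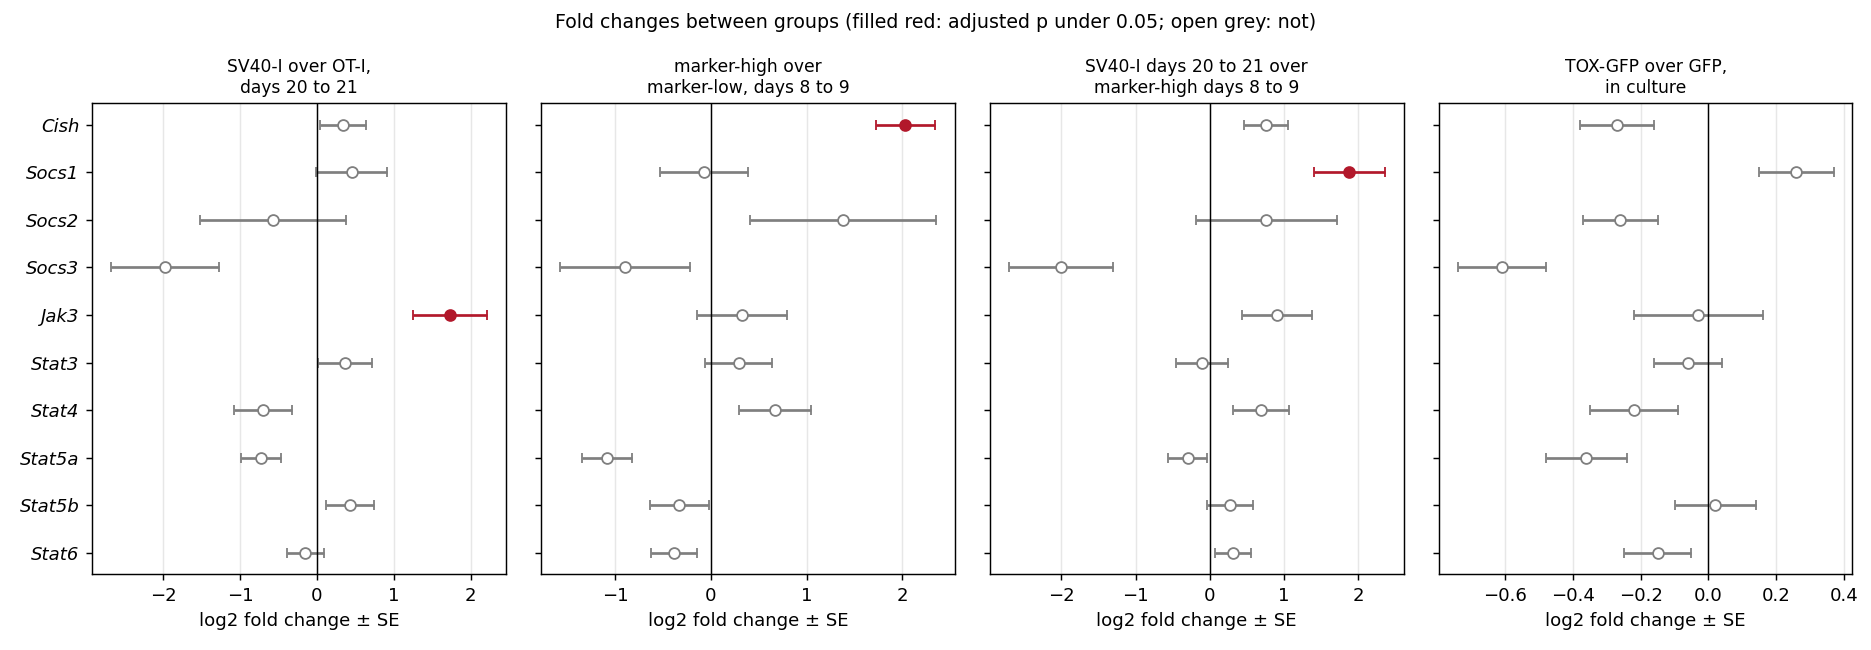
Log2 fold changes of the 10 genes in the 4 comparisons between groups other than naive, with bars of 1 SE from edgeR; filled red points passed an adjusted p of 0.05, open grey points did not, and the horizontal range differs between panels. Only Jak3 (1.73), Cish (2.03) and Socs1 (1.88) passed, each in 1 of the first 3 panels, and no gene passed for TOX-GFP over GFP.

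Of the STATs, Stat5a was lower than in naive cells in late SV40-I, marker-high and GFP cells, while its relative Stat5b passed the test in no comparison. Stat5a (chromosome 11, 100859351 to 100885169, plus strand) had 90.6, 90.6 and 101 CPM in late SV40-I libraries, against 176, 138 and 154 CPM in late OT-I libraries. It had 138, 122 and 89.6 CPM in marker-high libraries, against 201, 352 and 195 CPM in marker-low libraries. The TOX-GFP libraries held 61.6 and 62.5 CPM and the GFP libraries 78.8 and 74.9 CPM, against 221, 187 and 291 CPM in naive libraries. Late SV40-I, late OT-I, marker-high and both cultured groups lay below naive without overlap, late SV40-I below late OT-I, and marker-high below marker-low. Marker-low and naive libraries overlapped.

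Relative to naive cells, the Stat5a log2 fold change was -1.25 ± 0.26 in late SV40-I cells (n = 3 each, adjusted p = 0.00482, edgeR) and -0.96 ± 0.26 in marker-high cells (0.0183). In GFP cells it was -1.6 ± 0.27 (adjusted p = 0.000336). The late SV40-I and GFP calls held in every alternative run, while the marker-high call was lost without naive replicate 3 (0.0848), marker-high replicate 2 (0.0529) or marker-high replicate 3 (0.0607). Marker-high against marker-low cells gave -1.09 ± 0.26 and was not called with edgeR on the 15 ex vivo libraries (adjusted p = 0.0661), but was with all 19 libraries in one fit (0.026) and with DESeq2 (0.00775). Over the 12 alternatives it ran from -1.26 to -0.75, with adjusted p-values of up to 0.258. The highest marker-low library, replicate 2, at 352 CPM, held 7080 CPM of macrophage markers and 11100 CPM of T cell markers. Their part in its Stat5a level was not tested. Late SV40-I against late OT-I cells gave -0.73 ± 0.26 (adjusted p = 0.105), called only when those groups alone entered the fit (0.0268).

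Stat5b, the neighbour of Stat5a on chromosome 11 (100780731 to 100850724, minus strand), was called in no comparison. Its lowest and highest values were 154 and 321 CPM in late SV40-I, 117 and 199 CPM in late OT-I, 149 and 232 CPM in marker-high libraries and 185 and 288 CPM in those gated as marker-low. They were 156 and 157 CPM in TOX-GFP and 136 and 162 CPM in GFP libraries, against 181 and 283 CPM in naive libraries. Both cultured groups lay below naive without overlap, and GFP cells had a log2 difference from naive of -0.66 ± 0.33 (adjusted p = 0.135, edgeR). Group means of Stat5b spanned a fold of 1.59, compared with 4.03 for Stat5a, and neighbouring groups in the order of levels all overlapped. Because both genes code for nearly the same protein, their ratio was computed in each library as counts per exonic base.

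The Stat5a to Stat5b ratio was 0.219, 0.457 and 0.45 in late SV40-I libraries, against 0.686, 0.642 and 1.02 in late OT-I libraries. It was 0.654, 0.632 and 0.3 in marker-high libraries, against 0.732, 0.95 and 0.819 in marker-low libraries. It was 0.304 and 0.311 in TOX-GFP and 0.449 and 0.359 in GFP libraries, while naive libraries had 0.696, 0.802 and 0.799. Neither the late groups, nor the gates, nor the cultured groups overlapped, and late SV40-I and marker-high lay below naive. Stat5a was the lesser of the pair per base in every library but late OT-I replicate 3. The means were 0.375 ± 0.135 in late SV40-I and 0.783 ± 0.208 in late OT-I libraries (SD, n = 3 each), a difference of -1.11 on the log2 scale. An exact two-sided permutation test gave p = 0.1 for each of the 4 comparisons of 3 against 3, which is the smallest p it allows, and 0.125 after adjustment over 5 comparisons. For TOX-GFP against GFP the exact p was 0.333, again the smallest possible. These ratios depend on how reads common to both genes were assigned: 608 stretches of 50 bases occur in both, which is 15.8% of those in the longest coding transcript of Stat5a and 11.8% of those of Stat5b.

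**Figure D3:**
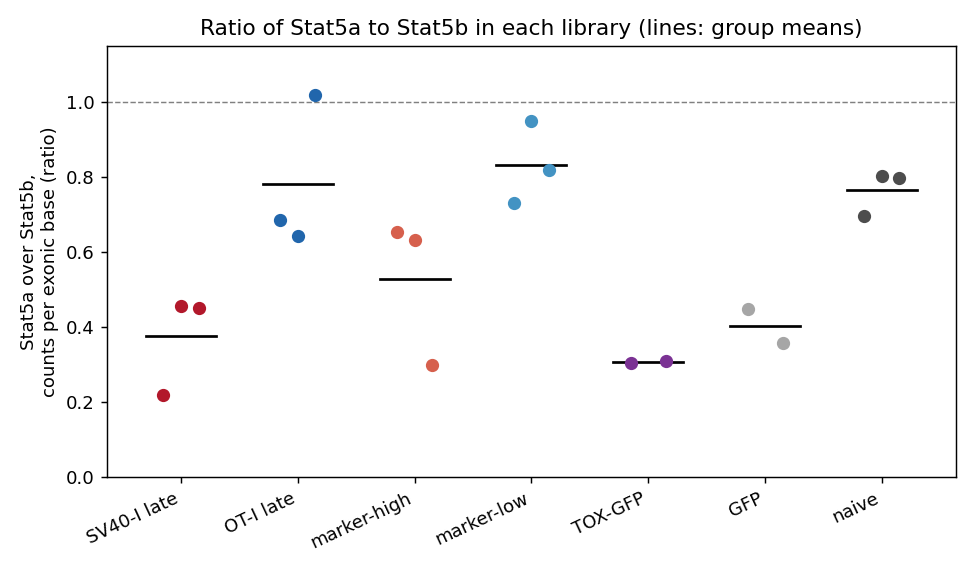
Ratio of Stat5a to Stat5b in counts per exonic base for each library, on a linear axis from 0; points are libraries, lines are group means and the dashed line marks equal levels. The late SV40-I libraries lie between 0.219 and 0.457 and the naive libraries between 0.696 and 0.802.

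Stat6 (chromosome 10, 127642986 to 127660957, plus strand) had the highest level per length of the 10 genes in every ex vivo group. It averaged 380 TPM (counts per exonic base, scaled to the same total in each library) in late SV40-I, 476 TPM in late OT-I, 323 TPM in marker-high libraries and 416 TPM in those gated as marker-low, against 532 TPM in naive libraries. In CPM it had 761, 662 and 595 in late SV40-I, 817, 710 and 712 in late OT-I, 529, 441 and 675 in marker-high libraries, and 595, 993 and 564 in those gated as marker-low. The TOX-GFP libraries had 281 and 267 CPM and the GFP libraries 287 and 302 CPM, against 1050, 685 and 974 CPM in naive libraries. All 4 cultured libraries lay below all 15 ex vivo libraries, and marker-high lay below naive without overlap, while the other ex vivo groups overlapped with naive. GFP cells had a log2 fold change of -1.62 ± 0.26 from naive cells (n = 2 against 3, adjusted p = 0.000211, edgeR), and this call held in all 9 alternatives. No ex vivo comparison called Stat6, the nearest being marker-high against naive with -0.68 ± 0.24 (adjusted p = 0.0602), which passed with DESeq2 (0.0466).

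Stat3 (chromosome 11, 100885098 to 100939540, minus strand) was called in no comparison. It had 796, 519 and 548 CPM in late SV40-I libraries, against 521, 584 and 335 CPM in late OT-I libraries. It had 477, 446 and 1100 CPM in marker-high libraries, against 454, 756 and 440 CPM in marker-low libraries. The cultured groups held 285 to 295 CPM, against 378, 291 and 361 CPM in naive libraries. Every late SV40-I, marker-high and marker-low library lay above all naive libraries, and marker-high replicate 3 and marker-low replicate 2 were the high values of their groups. The log2 differences from naive were 0.91 ± 0.35 in late SV40-I (adjusted p = 0.0922, edgeR) and 1.01 ± 0.35 in marker-high cells (0.0554). The marker-high difference was called with DESeq2 (0.98, 0.0429), with all 19 libraries in one fit (0.97, 0.0411) and without marker-high replicate 2 (1.24, 0.0425), and was 0.47 without marker-high replicate 3. The late SV40-I difference was called when only these groups entered the fit (0.92, 0.029).

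Stat4 (chromosome 1, 51987148 to 52107189, plus strand) was lowest in marker-low cells. It had 38.5, 94.7 and 114 CPM in late SV40-I libraries, against 86.1, 166 and 145 CPM in late OT-I libraries. It had 35.1, 53.8 and 65.6 CPM in marker-high libraries, against 25.5, 34.2 and 37.7 CPM in marker-low libraries. The TOX-GFP libraries held 54.8 and 59.9 CPM and the GFP libraries 59.7 and 69.8 CPM, against 82.9, 65.3 and 108 CPM in naive libraries. All marker-low libraries lay below all naive libraries, while groups next to each other in the order of levels overlapped. The marker-low log2 fold change from naive was -1.37 ± 0.39 (n = 3 each, adjusted p = 0.0294, edgeR). It was lost without marker-low replicate 1 (0.105), 2 (0.051) or 3 (0.0555) and without naive replicate 1 (0.0653) or 3 (0.113). Of the exonic bases of Stat4, 26.7% are shared with an overlapping clone-named gene, RP24-194N4.4, on the same strand, so its counts are uncertain.

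Compared per length, the order of the members differed between the ex vivo and the cultured cells. In the means of late SV40-I cells Cish, at 221 TPM, stood second to Stat6, and Jak3 followed at 207 ± 164 TPM (SD, n = 3). The place of Jak3 rested on replicate 1. Its late SV40-I libraries had 394, 140 and 88 TPM, against 215, 136 and 136 TPM for Stat3. Socs2 and Socs3 were the lowest of the members there, at 0.895 and 1.21 TPM. In marker-low cells Cish averaged 32.4 TPM and lay below Stat3, Stat5a, Stat5b, Stat6 and Jak3. In GFP cells Socs1 averaged 330 TPM, Cish 294 TPM, Jak3 281 TPM and Stat6 242 TPM. In naive cells Stat6 averaged 532 TPM, Stat5b 111 TPM, Stat3 93.1 TPM and Stat5a 85.0 TPM, while Cish averaged 9.14 TPM and Socs1 2.70 TPM.

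The comparisons with naive cells, all of which share the same 3 naive libraries, placed the member results among all genes. In late SV40-I cells 4 of the 10 members were called, Cish and Jak3 higher and Stat5a and Socs3 lower, where 18% of 16404 genes were called, and 5 members did not overlap with naive, where 38% of genes did not. In late OT-I cells 2 members were called, Cish higher and Socs3 lower, where 7.35% of genes were, and 4 did not overlap, where 28.4% of genes did not. In marker-high cells 3 members were called, Cish higher and Stat5a and Socs3 lower, where 23.4% of genes were, and 7 did not overlap, where 45.4% of genes did not. In marker-low cells 2 members were called, Cish higher and Stat4 lower, where 16.8% of genes were, and 4 did not overlap, where 37.1% of genes did not. In GFP cells 6 members were called, Cish, Socs1, Socs2 and Jak3 higher and Stat5a and Stat6 lower, where 32.6% of 18608 genes were, and 8 did not overlap, where 60.2% of genes did not. All 8 T cell markers were called lower in GFP than in naive cells, and their part in these differences was not tested. The medians of the 10 log2 differences were 0.45 in late SV40-I, 0.20 in late OT-I, -0.51 in marker-high, 0.06 in marker-low and 0.51 in GFP cells, beside medians over all genes of 0.00 to 0.09.

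**Figure D4:**
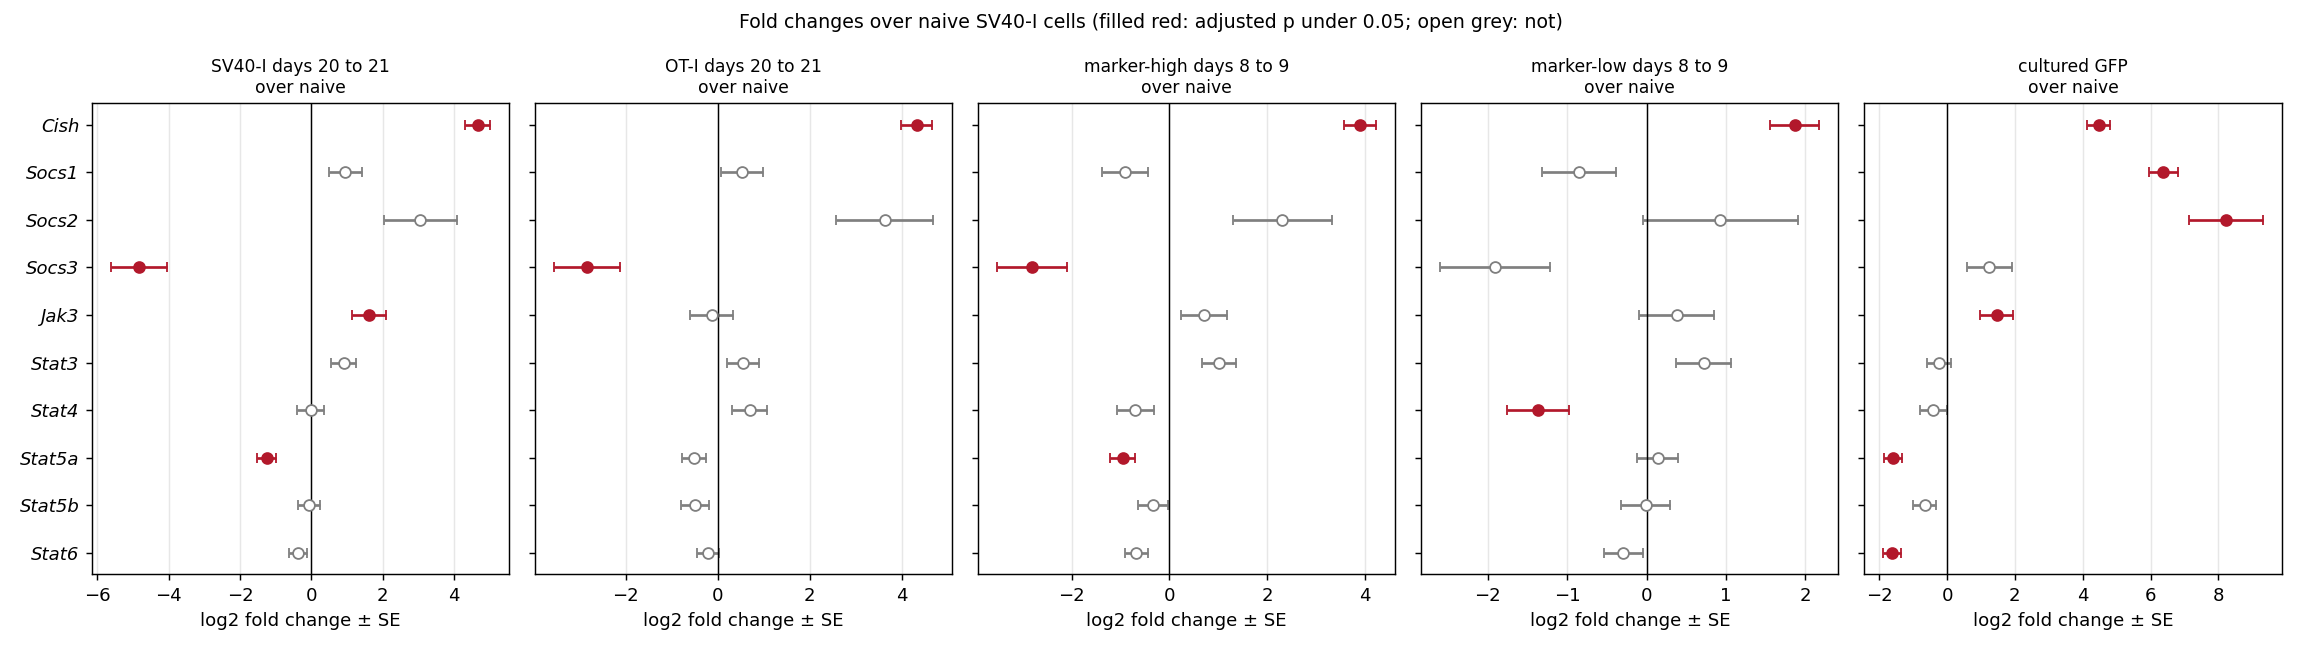
Log2 fold changes of the 10 genes over naive SV40-I cells in 5 groups, with bars of 1 SE from edgeR; filled red points passed an adjusted p of 0.05, open grey points did not, and the horizontal range differs between panels. Cish passed in all 5 panels at 1.87 to 4.67, Socs3 lay below 0 in the 4 lesion-derived panels, and Socs1 and Socs2 passed only for cultured GFP cells.

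Between the late groups, 2 of the 10 members, Stat5a and Socs3, did not overlap, where 28.6% of genes did not, and the genes around the members moved in several directions. The counts that follow stand beside the 9.02% of all genes called here. That share fell without the 3 libraries rich in hepatocyte transcripts, a fit with late OT-I replicate 1 alone in its group. Of 19 cytokine receptor chains, 3 were higher and 5 lower in late SV40-I than in late OT-I cells, with a median log2 difference of -0.70 beside -0.04 over all genes. Il7r, the IL-7 receptor chain, had 0.0708 ± 0.0684 CPM in late SV40-I and 95.6 ± 78.7 CPM in late OT-I libraries (SD, n = 3 each; adjusted p = 0.000356, edgeR), the first at about the level of 3 counts. Il4ra, the receptor chain that signals through STAT6, averaged 168 ± 33.4 CPM in late SV40-I and 426 ± 35.8 CPM in late OT-I libraries (log2 fold change -1.34, adjusted p = 0.00797). Ifngr1 averaged 451 ± 148 CPM in late SV40-I and 1450 ± 200 CPM in late OT-I libraries (-1.70, 0.0013). Il2rb, the IL-2 and IL-15 receptor chain, was higher by 1.17 ± 0.34 (adjusted p = 0.0489). Jak1, the partner kinase of JAK3, was lower, with 103 ± 35.7 CPM in late SV40-I and 271 ± 104 CPM in late OT-I libraries (-1.40, 0.0377), the single one called of 5 other JAKs and STATs. Of 15 other negative regulators 2 were called, both higher: Ptpn11, coding for the phosphatase SHP-2, by 2.30 ± 0.35 (0.00119) and Cblb, a ubiquitin ligase that restrains T cell activation, by 1.03 ± 0.29 (0.0433).

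Among 13 cytokines that act through JAKs, 11 were tested between the late groups, where 9.02% of all genes were called. Il10 and Csf2 were called higher and Il2 and Il15 lower. Il2 had 0.0805 ± 0.0700 CPM in late SV40-I and 2.90 ± 0.903 CPM in late OT-I libraries (adjusted p = 0.0126, edgeR). Il15, coding for a cytokine that sustains memory CD8 T cells, had 0.743 ± 0.152 CPM in late SV40-I and 9.31 ± 2.51 CPM in late OT-I libraries (log2 fold change -3.65, adjusted p = 0.0438). Of 12 STAT target genes 3 were called, all lower: Il18rap (-6.83), Il18r1 (-4.72) and Myc (-1.25). Pim1 and Bcl2, which STAT5 is known to induce in T cells, were not called, with Pim1 at 15.4 ± 3.39 CPM in late SV40-I and 10.4 ± 2.86 CPM in late OT-I libraries.

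Between marker-high and marker-low cells 196 genes (1.19%) were called, a number that was 38 without marker-low replicate 3, 4 when only these groups entered the fit and 753 with DESeq2. Cish was the single member called, and Cish and Stat5a were the 2 that did not overlap, where 16.3% of genes did not. The lists around them held 1 called gene each or none. Il4ra was lower in marker-high cells, at 184 ± 37.9 CPM, against 941 ± 373 CPM in marker-low cells (SD, n = 3 each; log2 fold change -2.35 ± 0.28, adjusted p = 0.00259, edgeR). Il2 was at 0.581 ± 0.386 CPM in marker-high cells, against 25.5 ± 7.17 CPM in marker-low cells (-5.44, 0.0332), and Myc at 289 ± 63.2 CPM in marker-high cells, against 667 ± 143 CPM in marker-low cells (-1.20, 0.0366). No gene of the 5 other JAKs and STATs or of the 15 other negative regulators passed, with medians of 0.08 and 0.13 beside 0.00 over all genes. Cish and Il4ra thus differed in opposite directions between the same libraries.

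Late SV40-I against marker-high cells, a comparison in which days of isolation and gate differ together, called 5.33% of genes and 1 member, Socs1, which was also the 1 member that did not overlap, where 27.1% of genes did not. Il2rb averaged 12500 ± 402 CPM in late SV40-I and 5180 ± 3450 CPM in marker-high libraries (SD, n = 3 each; 1.29 ± 0.34, adjusted p = 0.0463, edgeR). Il2ra, the high-affinity IL-2 receptor chain, averaged 0.878 ± 0.339 CPM in late SV40-I and 14.1 ± 10.8 CPM in marker-high libraries (-3.99 ± 0.97, 0.0329). Myc had a log2 fold change of -1.14 (0.0186). The 8 macrophage markers summed to 46.1 to 952 CPM in late SV40-I libraries, against 3480 to 4800 CPM in marker-high libraries, and 2 of them were called lower, while 4 of 8 T cell markers were called higher; their part in these differences was not tested.

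In the comparisons with naive cells, the 19 cytokine receptor chains moved both ways. In late SV40-I cells 7 were called higher and 5 lower, where 18% of all genes were called. These numbers were 7 and 2 in late OT-I (7.35% of all genes) and 6 and 5 in marker-high cells (23.4%). They were 6 and 4 in marker-low (16.8%) and 6 and 4 in GFP cells (32.6%). Il27ra had a log2 fold change of -1.68 in marker-high cells. On the log2 scale, Il2rb was called higher in all 5 groups compared, by 4.45 in late SV40-I and 3.28 in late OT-I cells. It was higher by 3.16 in marker-high, 2.35 in marker-low and 1.2 in GFP cells. Il12rb1, a chain of the IL-12 receptor, was likewise higher in all 5, by 2.98 in late SV40-I, 2.37 in late OT-I, 2.48 in marker-high, 1.54 in marker-low and 2.78 in GFP cells. Jak1 was lower, with log2 fold changes of -1.71, -2.70 and -2.09 in late SV40-I, marker-high and marker-low cells. Pias3, coding for an inhibitor of STAT3, was higher by 3.08, 1.92 and 1.67 in these groups and by 2.17 in late OT-I cells. Pias1 went the other way, with -1.02 in marker-low cells. Both belong to the 15 other negative regulators, of which late SV40-I cells had 4 called higher and 1 lower. The numbers were 5 and 1 for either gate of days 8 to 9, and 2 and 0 for late OT-I. Median log2 differences of this list were 0.17, 0.17, 0.08 and 0.38 for late SV40-I, marker-high, marker-low and late OT-I. Medians over all genes were 0.04 to 0.09. Ptpn11 was higher by 2.68 in late SV40-I, 2.37 in marker-high and 1.32 in GFP cells. For every gene named here, in the groups given, the adjusted p was at most 0.0186 (edgeR).

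In cultured GFP cells, where 32.6% of all genes were called against naive cells, 9 of 12 STAT target genes were called, 8 higher and 1 lower, with a median log2 difference of 2.39 beside 0.00 over all genes. Myc averaged 938 ± 19.2 CPM in GFP libraries, against 179 ± 13.6 CPM in naive libraries (SD, n = 2 and 3). Xbp1 averaged 1270 ± 24.1 CPM in GFP libraries, against 7.34 ± 1.84 CPM in naive libraries. Bcl2 averaged 737 ± 118 CPM in GFP libraries, against 30.7 ± 9.47 CPM in naive libraries, and Pim1 24.2 ± 2.70 CPM in GFP libraries, against 2.93 ± 0.953 CPM in naive libraries. Il2ra averaged 1180 ± 163 CPM in GFP and 4.95 ± 5.57 CPM in naive libraries (log2 fold change 7.90 ± 1.04). Of 15 other negative regulators 7 were called, 6 higher and 1 lower, led by Cbl (2.29), Ptpn2 (2.00) and Ptpn1 (1.34), the last 2 of these being phosphatases that act on JAKs and STATs. Il27ra (-2.41) and Il21r (-1.67) were lower. Each of these genes had an adjusted p of at most 0.0024 (edgeR). Ptpn6, another phosphatase gene of the list, went the other way. It averaged 438 ± 22.3 CPM in GFP libraries, against 1000 ± 174 CPM in naive libraries.

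Whether TOX changed the members in culture was asked by comparing TOX-GFP with GFP cells, where edgeR called 0 of the 10 members and 0 of 14614 genes (0%). Tox itself, at 99.1 to 131 CPM in TOX-GFP and 11.1 to 17.5 CPM in GFP libraries, was thus not called. The lack of calls in this fit therefore does not show that the members were unchanged. The number over all genes rested on the GFP libraries, being 1400 without GFP replicate 2 and 217 without GFP replicate 1, against 0 or 1 without either TOX-GFP library, and DESeq2 called 494 (4.15%). The 2 libraries of each group did not overlap for 6 of the 10 members, where 47.1% of all genes did not. Socs3 had the largest difference, with 66.4 and 65.5 CPM in TOX-GFP libraries, against 103 and 90.7 CPM in GFP libraries. Its log2 fold change was -0.61 ± 0.13, with an unadjusted p of 0.0033 and an adjusted p of 0.22. Socs3 was among the genes called by DESeq2 (-0.61, adjusted p = 0.0136), and by edgeR without GFP replicate 2 (-0.73, 0.0235; 8.89% of genes called), a fit in which the lone GFP library is assumed to vary like the others. Stat5a gave -0.36 ± 0.12 (adjusted p = 0.307) and Cish -0.27 ± 0.11 (0.378), and with Socs3 these were the 3 members at an unadjusted p under 0.05. Socs1 gave 0.26 ± 0.11 (adjusted p = 0.414) and Socs2 -0.26 ± 0.11 (0.407). Stat5b and Jak3 had log2 differences of 0.02 and -0.03, with 95% intervals of -0.21 to 0.26 and -0.40 to 0.34.

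The TOX-GFP minus GFP difference was also set against the marker-high minus marker-low difference in one fit of all 19 libraries. Cish gave the largest contrast, -2.26 ± 0.45 on the log2 scale, with an unadjusted p of 0.000156 and an adjusted p of 0.142 (edgeR), and DESeq2 called it (0.00134). No member passed with edgeR, where 0.0269% of 18608 genes did, and at an unadjusted p under 0.05 there were 2 members, Cish and Stat5a.

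Over the 19 libraries, the genes whose log2(CPM + 1) values ran most like each member were sought among 7613 genes with a mean of at least 10 CPM. These correlations are across libraries that share groups, and they describe likeness of pattern alone. For Cish the closest were Atp8b2 (Pearson r = 0.945), Fgl2 (0.943) and Il12rb1 (0.933), the last of these also a member of the receptor list. For Socs1 they were Rasal3 (0.984), RP24-482A24.5 (0.981) and Prpsap1 (0.979), and for Socs2 Sec24a (0.962), Slc39a6 (0.957) and Leo1 (0.957). For Socs3 they were Gpr146 (0.942), St8sia1 (0.94) and Sh3bp5 (0.937), and for Jak3 Acaa1a (0.92), Nf2 (0.919) and Map4k1 (0.918). Stat6 ran closest to Vav1 (0.978), Ist1 (0.973) and Supt5 (0.968), and Stat5a to Nol6 (0.927), Mettl13 (0.916) and Trmt61a (0.915). For Stat3 the closest were Fbxo18 (0.923), Sec14l1 (0.901) and Zfp513 (0.898), and for Stat4 Syne1 (0.92), Tgoln1 (0.914) and Trip4 (0.887). Stat5b had no gene above 0.843 (Akt2), followed by Ezr (0.814) and Snd1 (0.811).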

How the data were processed

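The values deposited are raw counts of read pairs per gene name, made by the authors with featureCounts 1.6.2 (paired reads, GENCODE M17, GRCm38) per the file headers. No strand or multimapping option appears there, so antisense and overlapping genes cannot be told apart. The submitters' processing notes also name FastQC, STAR and DESeq2, with versions not given in the sources used here. Per the labels' protocols, SMART-Seq v4 amplification preceded library preparation and paired-end sequencing, and the reads carry no molecular identifiers.

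Tests were edgeR 4.0.16 quasi-likelihood fits (R 4.3.3, TMM, filterByExpr, robust) with Benjamini-Hochberg adjustment. The 15 ex vivo libraries were fitted together (16404 genes), the 4 cultured libraries together (14614 genes), and all 19 for GFP against naive and for the contrast of differences (18608 genes). Standard errors follow from the F statistic. TPM values used the deposited exonic lengths. Alternatives were DESeq2 1.42.0, its size factors, no filter, the replicate block, other sample sets and each library left out. The members and gene lists were chosen with earlier results of these data known. Named genes were the members, some of the up to 3 called genes of smallest p per list and comparison, and the 3 genes most like each member. Il2ra, Il2rb, Il15, Pim1 and Bcl2 outside that rule were added after their values were seen. Il12rb1 in late OT-I and marker-low cells and Ptpn11 and Ptpn6 in GFP cells also lay outside it. Tested on simulated data, the late SV40-I against late OT-I fit (15707 genes) recovered 5% of 2-fold and 27% of 4-fold changes, and the TOX-GFP against GFP fit (14133 genes) 64% and 80%, with 3 and 14 false calls. On the measured libraries the TOX-GFP against GFP fit called no gene, Tox included. Its simulated shares therefore do not tell how many real changes it would find. For the late groups, the simulation changed 200 genes, while 1479 were called on the measured libraries. The simulated shares of 5% and 27% hold for that setting and need not hold for the measured libraries.

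Replicate numbers in the titles were checked for pairing: over 7623 genes, the correlation of same-numbered libraries was over 0.1 in all 3 pairs for marker-high and naive (0.18, 0.28 and 0.31) and in no other comparison with 3 pairs. Nothing in the labels gives that pairing, and the block moved no count of member calls there.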

Additional observations from a re-analysis of the deposited data

How the results depend on the processing

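Of 1200 values of single members under alternatives, 1098 kept their direction and side of the threshold, 40 of 230 for called results lost the call and none of those reversed. The called differences of Cish from naive, of Socs3 and Stat5a in late SV40-I from naive, and of Cish, Socs1, Socs2, Stat5a and Stat6 in GFP from naive cells held throughout. With raw library totals in place of TMM scaling, 20 of 70 group means moved by more than 1 SD. In number of members called, late SV40-I against late OT-I had 2 with DESeq2, 0 without hepatocyte-rich libraries and 0 to 1 when a library was left out. Marker-high against marker-low had 2 with DESeq2, 2 with all 19 libraries, 0 with only its groups and 0 to 1 with a library left out. Late SV40-I against marker-high had 2 with DESeq2, 0 with no filter, 0 with only its groups, 0 without hepatocyte-rich libraries and 0 to 2 with a library left out. Late SV40-I against naive had 5 with DESeq2, 5 with all 19 libraries and 3 to 4 with a library left out. Late OT-I against naive had 3 with DESeq2, 3 with all 19 libraries, 1 without hepatocyte-rich libraries and 1 to 2 with a library left out, and marker-low against naive 3 with DESeq2, 3 with all 19 libraries and 1 to 2 with a library left out, while marker-high against naive 6 with DESeq2, 5 with all 19 libraries and 2 to 5 with a library left out. TOX-GFP against GFP had 1 with DESeq2 and 0 to 1 with a library left out, where the lone sample is assumed to vary like the others, and the contrast of differences had 1 with DESeq2. Leaving out the hepatocyte-rich libraries left late OT-I replicate 1 alone in its group, where it is assumed to vary like the others. The cause of these changes was not tested.

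Over all genes, DESeq2 called 2514 between the late groups, where edgeR called 1479, 2267 for late SV40-I against marker-high, where edgeR called 874, 2452 for late OT-I against naive (1206), 4488 for marker-low against naive (2754), 753 for marker-high against marker-low (196), 494 for TOX-GFP against GFP (0) and 160 for the contrast of differences (5). Without hepatocyte-rich libraries these numbers were 280 for late SV40-I against marker-high and 1980 for late SV40-I against naive. They also fell between the late groups and for late OT-I against naive, where late OT-I replicate 1 stood alone in its group. With all 19 libraries 311 were called for marker-high against marker-low, and with only the groups compared 4 for that comparison and 325 for late SV40-I against marker-high. With a library left out the numbers ran from 872 to 1111 between the late groups, from 38 to 159 for marker-high against marker-low, and from 311 (without marker-high replicate 2) to 1669 (without marker-high replicate 3) for late SV40-I against marker-high. Against naive they ran from 773 to 861 in late OT-I, from 1402 to 2174 in marker-low, from 2414 to 3581 in marker-high and from 3760 to 5324 in GFP cells, and elsewhere from 0 to 1400 for TOX-GFP against GFP, and from 0 to 10 for the contrast of differences.

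With the replicate number as a block, late SV40-I against marker-high called 0 members, Socs2 in late OT-I against naive was called (adjusted p = 0.0481), Stat5b in marker-low against naive became 0.01, and no other call changed. For the other groups too, the labels give no pairing, and whether any was made is not known. Correlations of same-numbered libraries ran from -0.5 to 0.38. They were 0.38, 0.05 and 0.32 between late SV40-I and late OT-I.

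All 31 reversals were of 15 results not called, of at most 0.62 in size. Over all alternatives, marker-high against marker-low ran from -0.24 to 0.59 (Stat3), -0.35 to 0.22 (Socs1) and -1.54 to 0.09 (Socs3), and late SV40-I against marker-high from -0.32 to 0.44 (Stat3) and -0.13 to 0.50 (Stat5b). Against naive, late SV40-I ran from -0.29 to 0.33 (Stat4) and -0.48 to 0.09 (Stat5b), late OT-I from -0.55 to 0.16 (Jak3), and marker-low from -0.27 to 0.35 (Stat5a) and -0.29 to 0.15 (Stat5b). TOX-GFP against GFP ran from -0.09 to 0.12 (Stat5b) and -0.29 to 0.26 (Jak3), and the contrast of differences from -0.61 to 0.24 (Stat3), -0.02 to 0.46 (Stat6) and -0.62 to 0.97 (Socs3). Without hepatocyte-rich libraries Stat3 gave 0.05 in late SV40-I against marker-high and Stat5b 0.08 in late SV40-I against naive, and with all 19 libraries Jak3 gave 0.02 for TOX-GFP against GFP. With 3 libraries a group, simulated 2-fold and 4-fold changes were mostly missed between the late groups. That simulation changed fewer genes than were called there on the measured libraries, so these shares need not hold for them.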
